A study of Homo sapiens with 21 samples.

Results

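The comparison set MCF10A cells 480 min after epidermal growth factor (EGF) against the same cells 120 min after it, to ask which of the transcript changes seen at 2 h were kept, lost or extended by 8 h and which began only later. It used 6 of the 21 arrays of the time course, the 3 arrays of the 480 min group and the 3 of the 120 min group, chosen by their labelled time alone. MCF10A is an immortalised, non-tumorigenic line of human mammary epithelial cells. All groups were plated without EGF for a day and then starved for a further day in medium with 1% horse serum. The 480 min and 120 min groups then received EGF at 20 ng/ml, and the 0 min group, which gave the starting level, received none. Each group held 3 biological replicates, described in the labels as triplicate cultures. Untreated cells at 120 or 480 min were not among the samples, so an effect of EGF on the late change cannot be told apart from an effect of time in culture.

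EGF binds its receptor, EGFR, and switches on the RAS, RAF, MEK and ERK kinase cascade together with PI3 kinase and AKT signalling. The first genes to respond, the immediate early genes, are mostly transcription factors of the FOS, JUN, EGR and NR4A families that need no new protein to be induced. Their products and the ERK phosphatases, Sprouty proteins and decay factors made after them are known to shape a later set of genes, which in epithelial cells covers proteases, adhesion proteins and cell cycle regulators. AKT also keeps FOXO transcription factors out of the nucleus, and FOXO targets are known as genes of starved, resting cells.

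A gene's value was the median of log2(intensity + 16) over its probesets, and 16614 genes were tested with limma on all 21 arrays. The arrays had nearly equal median intensities (20.4 to 20.6). Replicate arrays correlated across genes at 0.960 to 0.988 at 480 min and at 0.944 to 0.978 at 120 min. An index of gene over unnamed probesets was 1.22, 1.33 and 1.42 on the 3 arrays of 120 min. The value of the third was the highest of the 21 arrays. The index averaged 1.31 ± 0.06 at 480 min and 1.32 ± 0.10 at 120 min (SD, n = 3 each). Basal epithelial markers fitted the label, with 14 of 14 on the array above the 75th percentile of all probesets. Of the luminal markers 6 of 12 were above it (KRT8, KRT18, GATA3, FOXA1, MUC1 and XBP1), and ESR1 and PGR were not. Of the fibroblast markers 3 of 12 were above it (COL1A1, DCN and FBN1), of the leukocyte markers 1 of 10 (NKG7) and of the endothelial markers 1 of 10 (CLDN5). PDGFRA, PTPRC and PECAM1 were among those that were not. Fewer cells of a type and less RNA per cell cannot be told apart in such bulk samples.

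Most genes that had responded by 2 h were still changed at 8 h with no detected step in between. The protease genes MMP10 and MMP1 had the largest rises, the cytokine gene IL36G and the transcription factor gene EGR3 the largest falls, and 13 of 29 immediate early transcription factor genes fell. Between 480 and 120 min 1108 of the 16614 genes (6.67%) passed limma's test at a Benjamini-Hochberg adjusted p under 0.05. They were 423 higher genes (2.55%) and 685 lower genes (4.12%), and 30 of the higher and 70 of the lower genes changed by at least 1 on the log2 scale. The 3 arrays of 480 min all lay above the 3 of 120 min for 9.77% of genes and all below them for 11.4%. The size and direction of this imbalance depended on single 120 min arrays. Without the third 508 genes were higher and 401 lower, and without the first 273 were higher and 744 lower. With the index as a covariate 907 were higher and 942 lower. Median centring of the arrays gave 577 higher and 724 lower genes.

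Of the genes called between 120 and 0 min, 1862 rises (11.2% of genes) and 533 falls (3.21%), each was placed by what followed. A change was called kept when the step from 120 to 480 min did not pass the test and the change from 0 to 480 min still did. It was called lost when that step passed in the opposite direction, and extended when it passed in the same direction. Genes whose step did not pass and which no longer differed from 0 min at 480 min were left undecided, and genes with a called step but no called change at 120 min were called late. The 2 contrasts share the 120 min arrays, so an error there pushes a gene towards lost. Of the 1862 rises 1150 (61.8%) were kept, 368 (19.8%) undecided, 233 (12.5%) lost and 111 (5.96%) extended. As shares of all genes these classes held 6.92%, 2.21%, 1.4% and 0.668%. Of the 533 falls 291 (54.6%) were kept, 159 (29.8%) undecided, 53 (9.94%) extended and 30 (5.63%) lost, or 1.75%, 0.957%, 0.319% and 0.181% of all genes. A further 282 genes (1.7%) rose late and 399 (2.4%) fell late. Which late direction was the larger depended on the setting. Without the third 120 min array 383 genes rose late and 237 fell late, and without the first 167 rose and 426 fell. With the index as a covariate 671 rose and 575 fell.

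**Figure D1:**
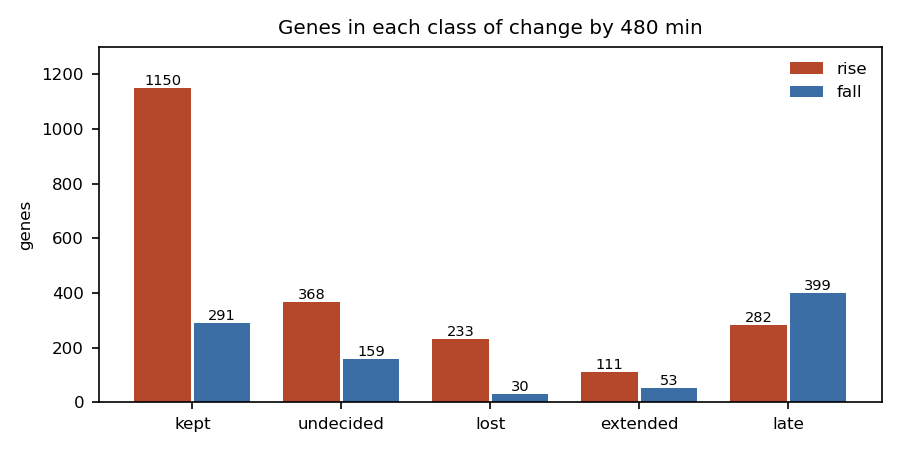
Number of genes (vertical axis) in each class of change, with rises and falls as separate bars; for the kept, undecided, lost and extended classes the direction is that of the change from 0 to 120 min, and for the late class that of the change from 120 to 480 min. Kept rises were the most numerous class with 1150 genes, and late falls numbered 399 against 282 late rises, an order that turned round without the third 120 min array (237 and 383) and with the index covariate (575 and 671).

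A lost call needs a step larger than the test can miss, so it is reached more easily by large rises, and shares by size are a description only. Among the 269 rises of at least 1 on the log2 scale 92 (34.2%) were lost, 155 (57.6%) kept and 18 (6.69%) extended, and among the 29 rises of at least 2, 15 (51.7%) were lost. The undecided share was 19.8% over all rises, 1.49% over those of at least 1 and 0% over those of at least 2. The median share of the 2 h log2 rise still present at 8 h was 87.1% over all rises, 76.8% over those of at least 1 and 79.6% over those of at least 2, so this measure did not fall steadily with size. Falls of at least 1 were few, and 13 of 21 were kept and 2 lost. When rises were instead chosen at 60 min, with no array shared, 164 of 801 (20.5%) fell between 120 and 480 min and 34 (4.24%) rose. A kept call means only that no step was detected. The 95% interval of the step lay within 0.5 times the size of the 2 h change, in either direction, for 222 of the 1150 kept rises and 34 of the 291 kept falls.

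**Figure D2:**
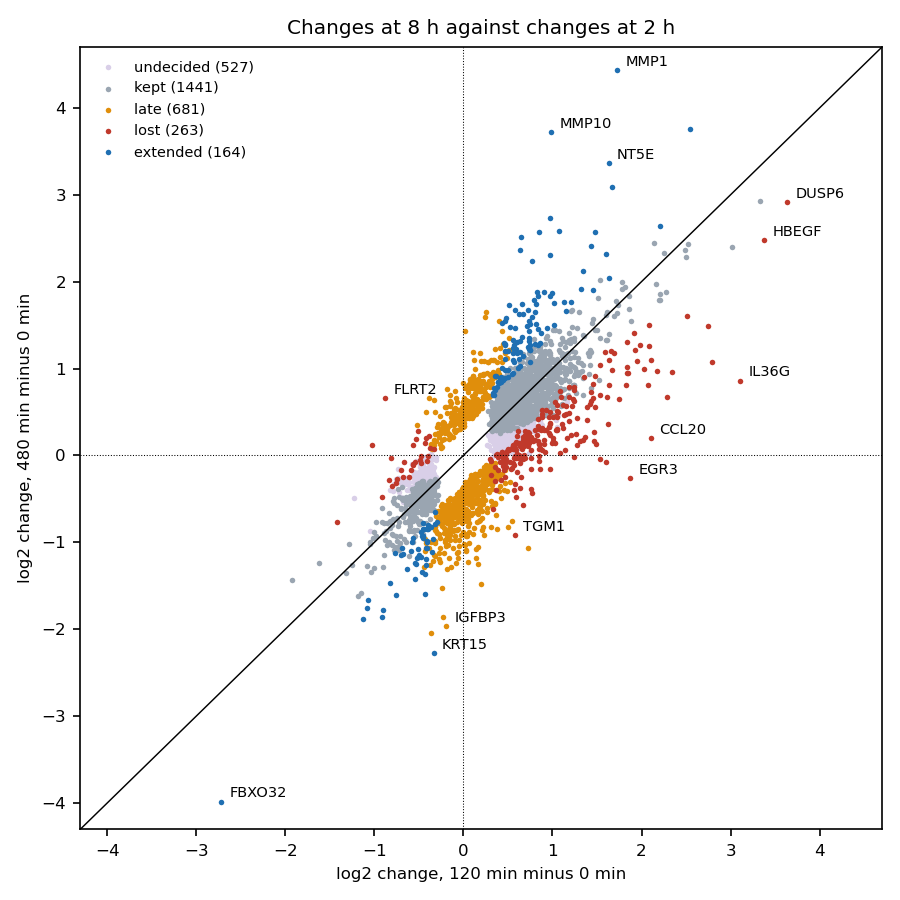
Log2 change from 0 to 480 min (vertical) against log2 change from 0 to 120 min (horizontal) for genes of the 5 classes, 1 point per gene, with the diagonal marking no step between 120 and 480 min; both axes use the same 0 min arrays. MMP1 and MMP10 lie far above the diagonal, IL36G, CCL20 and EGR3 far below it, and FBXO32 at the lower left had fallen at 120 min and fell further.

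Extended rises were led by the stromelysin gene MMP10 and the collagenase gene MMP1. MMP10 stood at 8.74, 8.47 and 8.85 at 480 min, against 5.98, 5.90 and 5.98 at 120 min. MMP1 stood at 9.20, 9.29 and 9.31 at 480 min, against 6.64, 6.55 and 6.47 at 120 min. For both genes each 480 min array lay more than 2 log2 units above each 120 min array, and the arrays of a time lay close together. MMP10 rose by 2.73 ± 0.14 on the log2 scale (SE of the difference between 3 and 3 arrays, a 6.65-fold change on the intensity + 16 scale, limma adjusted p = 5.37e-11) and MMP1 by 2.71 ± 0.13 (6.56-fold, adjusted p = 1.88e-11). MMP1 had reached 1.72 above its 0 min level at 120 min, 2.31 at 240 min and 4.44 at 480 min, so most of its step from 120 to 480 min came after 240 min. MMP10 followed a like course with 0.98, 1.72 and 3.72.

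KCNJ15, an inwardly rectifying potassium channel gene, stood at 7.76, 7.65 and 7.96 at 480 min, against 5.71, 5.70 and 6.34 at 120 min. The third 120 min array was well above the other two, and the groups were still more than 1 log2 unit apart (1.87 ± 0.16, adjusted p = 7.07e-08). FERMT1 encodes kindlin-1, which activates integrins. It stood at 10.32, 10.39 and 10.40 at 480 min, against 8.40, 8.67 and 8.75 at 120 min, and rose by 1.76 ± 0.11 (adjusted p = 1.01e-09). NT5E, the gene of a cell surface nucleotidase that makes adenosine, stood at 9.18, 8.75 and 9.46 at 480 min, against 6.95, 7.52 and 7.72 at 120 min. Its replicates spread more than those of FERMT1, but the groups did not overlap (1.73 ± 0.19, adjusted p = 3.6e-06).

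Other members of the class with steps over 1 log2 unit included CHRNA9, a nicotinic acetylcholine receptor subunit gene, at 1.72 ± 0.15, and SCG5, the gene of a secretory granule protein, at 1.72 ± 0.12. SERPINE2, which encodes a serine protease inhibitor, rose by 1.502 ± 0.14, and the amino acid transporter gene SLC6A14 by 1.47 ± 0.14. PLEK2, a pleckstrin family gene, rose by 1.42 ± 0.15, ANTXR2, the gene of a receptor for anthrax toxin that binds basement membrane proteins, by 1.34 ± 0.15, and LTBP1, which holds latent TGF-beta in the matrix, by 1.21 ± 0.13. Adjusted p lay between 5.47e-09 for SCG5 and 5.38e-06 for ANTXR2 in these 7 genes, and 480 and 120 min arrays were apart in each. Such separation was a condition for naming the leading genes of the extended, lost and late classes, so it adds no support. Over the 111 extended rises the median level above 0 min was 0.65 at 120 min, 1.04 at 240 min and 1.33 at 480 min.

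AP-1, the dimer of FOS and JUN family proteins, binds the letters TGANTCA, which were searched on both strands of the 300 bases from 250 before to 50 after each annotated start (RefSeq, GRCh38.p14). They stood in 7.71% of all 35116 windows of the table, in 5.2% of the first windows of the 13067 tested genes that had one and in 3 of the 12 first windows found for the 15 genes with the largest rise from 120 to 480 min. Of the 10 first windows found for the 15 largest falls 0 held them. So few windows do not allow a comparison, and none was tested. The 3 windows are shown because they belong to genes of the extended class that rose strongly, and capitals mark the match. They lie at chr11:102780579-102780878 on the minus strand for MMP10, at chr21:38272258-38272557 on the plus strand for KCNJ15 and at chrX:116436356-116436655 on the plus strand for SLC6A14.
MMP10: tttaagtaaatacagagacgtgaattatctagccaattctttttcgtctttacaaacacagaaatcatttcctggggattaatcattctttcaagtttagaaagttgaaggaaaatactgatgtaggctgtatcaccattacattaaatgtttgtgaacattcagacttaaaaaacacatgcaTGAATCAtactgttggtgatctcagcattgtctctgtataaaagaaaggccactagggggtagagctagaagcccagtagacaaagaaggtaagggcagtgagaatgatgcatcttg
KCNJ15: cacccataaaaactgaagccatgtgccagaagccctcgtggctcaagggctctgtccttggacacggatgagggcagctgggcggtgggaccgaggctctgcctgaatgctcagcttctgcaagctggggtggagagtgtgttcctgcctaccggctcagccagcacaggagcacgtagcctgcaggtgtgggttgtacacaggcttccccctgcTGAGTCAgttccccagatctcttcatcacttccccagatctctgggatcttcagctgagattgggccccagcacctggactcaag
SLC6A14: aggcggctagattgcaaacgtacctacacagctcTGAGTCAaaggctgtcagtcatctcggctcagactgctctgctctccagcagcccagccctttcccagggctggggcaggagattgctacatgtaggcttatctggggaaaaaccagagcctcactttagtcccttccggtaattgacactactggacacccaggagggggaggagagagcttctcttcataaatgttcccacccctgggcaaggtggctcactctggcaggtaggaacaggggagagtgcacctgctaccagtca
Relative to the start the match began at -67 in MMP10, -35 in KCNJ15 and -216 in SLC6A14. A match describes these letters and is neither a bound site nor a cause. MMP1, FERMT1 and MRGPRX3 had no window in the table, and classes were not compared for motifs because 78.7% of tested genes had a window.

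**Figure D3:**
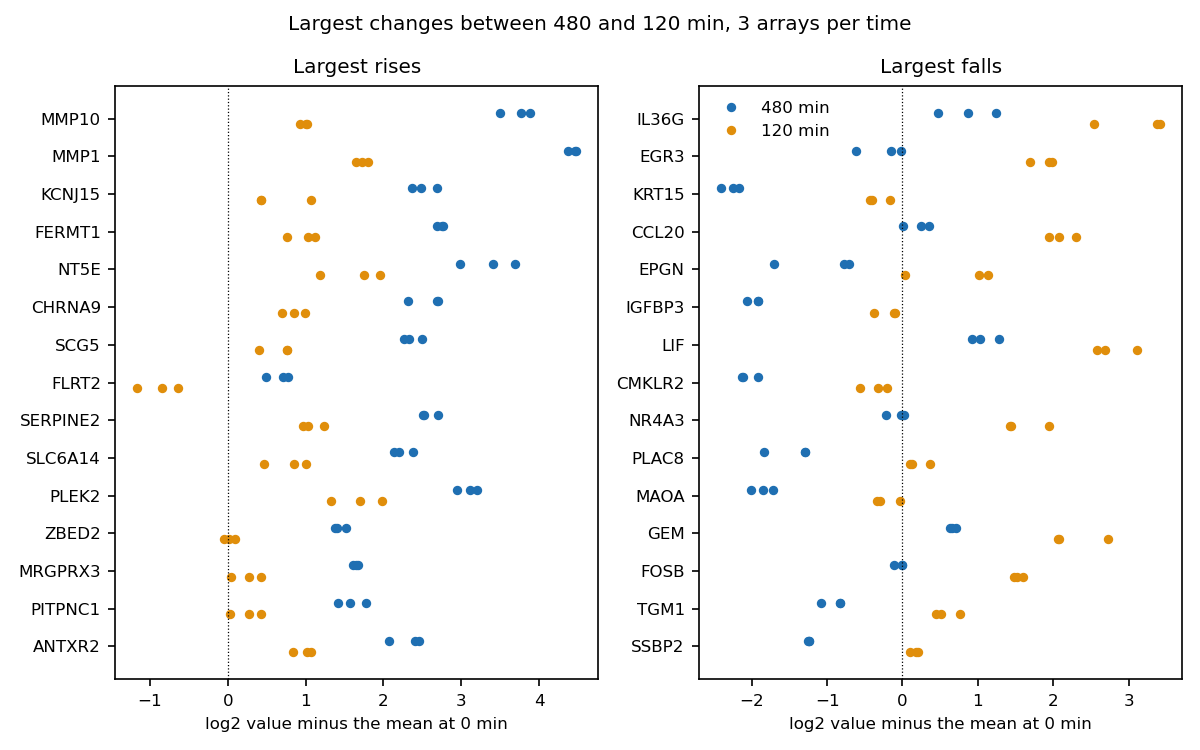
Log2 value on each array minus the gene's mean at 0 min (horizontal) for the 15 genes with the largest rise (left panel) and the 15 with the largest fall (right panel) from 120 to 480 min, largest at the top; blue points are the 3 arrays of 480 min and orange points the 3 arrays of 120 min. The dotted line marks the 0 min mean: EGR3, CCL20, NR4A3 and FOSB were near it at 480 min, while KRT15, IGFBP3 and MAOA were near it at 120 min and well below it at 480 min.

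Extended falls were led by KRT15, a keratin of basal cells, and FBXO32, a ubiquitin ligase gene and known FOXO target. KRT15 stood at 8.34, 8.11 and 8.26 at 480 min, against 10.11, 10.08 and 10.35 at 120 min. FBXO32 stood at 5.14, 5.09 and 5.18 at 480 min, against 6.27, 6.35 and 6.58 at 120 min. The 480 min arrays of both genes were lower than each 120 min array by over 1 log2 unit. KRT15 fell by 1.94 ± 0.10 (adjusted p = 5.37e-11) and FBXO32 by 1.26 ± 0.12 (adjusted p = 2.79e-07). FBXO32 stood at -2.72 at 120 min and -3.98 at 480 min relative to 0 min, and its value at 480 min was near the filter threshold of 5.18, where this scale understates changes. KRT15 had moved by only -0.33 at 120 min (limma adjusted p = 0.0307).

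The death-associated kinase gene DAPK1 fell by 1.17 ± 0.11, the zinc finger gene ZSCAN31 by 0.94 ± 0.17 and CYB561A3, a cytochrome b561 family gene, by 0.93 ± 0.13. TSHZ2, a teashirt family gene, fell by 0.87 ± 0.14, and KRT1, a keratin of differentiating epidermis, by 0.84 ± 0.12. Adjusted p lay between 3.26e-07 for DAPK1 and 0.000848 for ZSCAN31. Of the 53 extended falls 21 passed the test in the step from 120 to 240 min and 4 in the step from 240 to 480 min, with 1 in both. The median of the class stood at -0.46 at 120 min, -0.98 at 240 min and -1.10 at 480 min relative to 0 min.

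**Figure D4:**
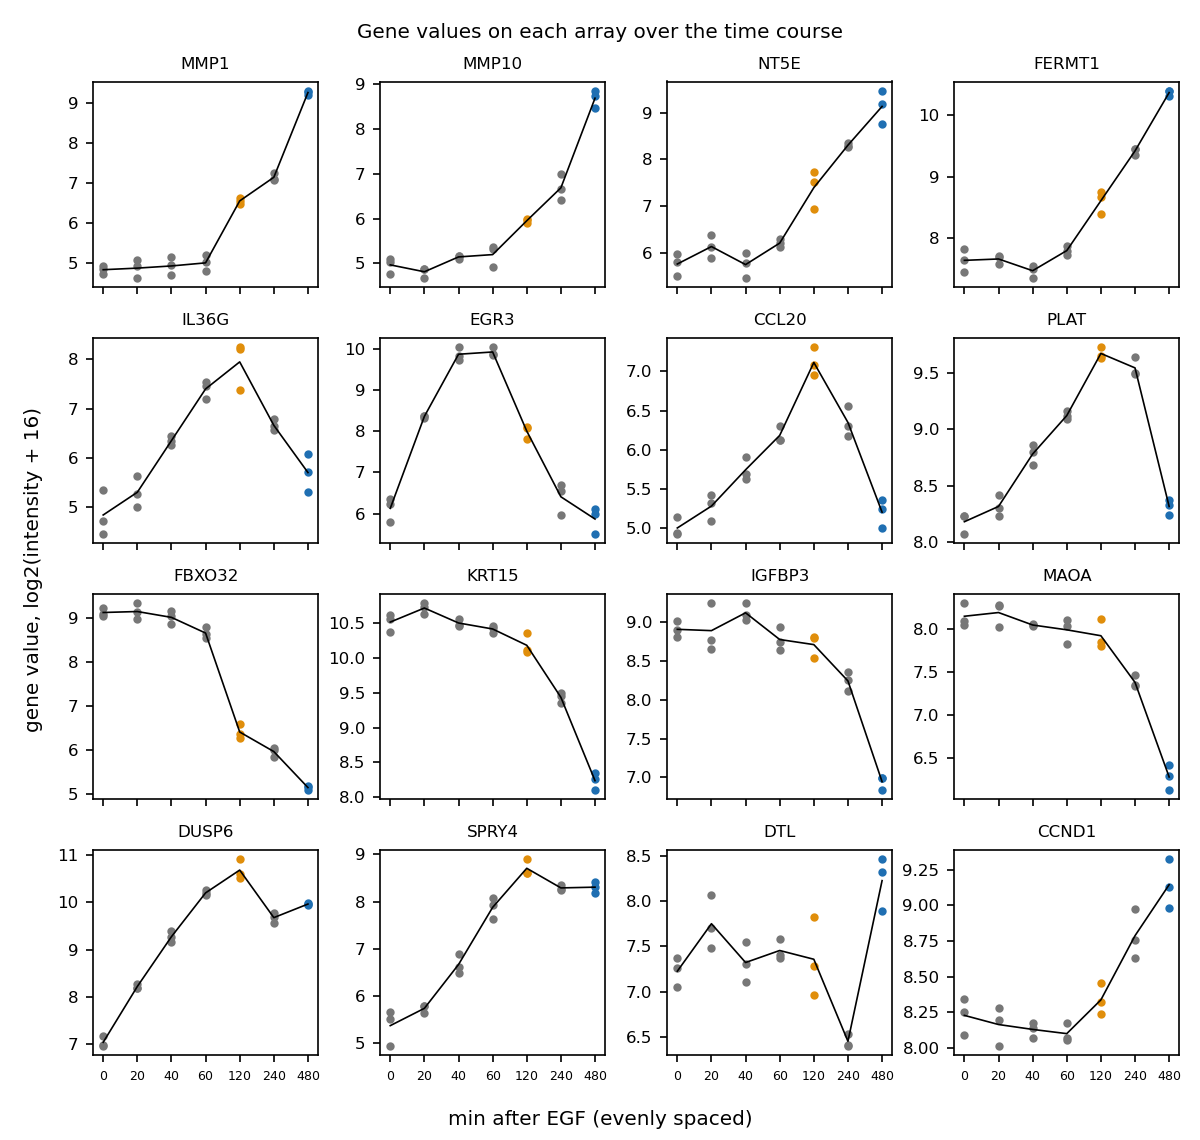
Gene value, log2(intensity + 16), on each of the 21 arrays (points) and the mean of each time (line) for 16 genes over the 7 times, evenly spaced on the horizontal axis and not to scale; orange marks 120 min and blue 480 min, and each panel has its own vertical range that does not start at 0. The top row shows extended rises, the second row lost rises, the third row extended and late falls, and the last row DUSP6 (lost in part), SPRY4 (kept), DTL and CCND1 (late rises).

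Lost rises were led by IL36G, EGR3 and CCL20. IL36G, a cytokine of the interleukin 1 family made by epithelia, stood at 5.71, 5.31 and 6.07 at 480 min, against 7.38, 8.21 and 8.25 at 120 min. EGR3, a zinc finger transcription factor gene, stood at 5.98, 6.11 and 5.51 at 480 min, against 8.11, 7.82 and 8.07 at 120 min. CCL20, a chemokine gene, stood at 5.01, 5.36 and 5.25 at 480 min, against 6.95, 7.08 and 7.31 at 120 min. In all 3 genes the groups were more than 1 log2 unit apart. IL36G fell by 2.25 ± 0.23 (adjusted p = 1.34e-06) and remained 0.86 above its 0 min level. EGR3 fell by 2.13 ± 0.18 (6.11e-08) and CCL20 by 1.91 ± 0.13 (4.35e-09), and neither differed from 0 min at 480 min (-0.26 and 0.20, adjusted p = 0.34 and 0.31).

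The 300-base window of CCL20, at chr2:227813592-227813891 on the plus strand, is shown because it was the only one of 10 windows found for the 15 largest falls that held the binding motif of NF-kB, which capitals mark from -79 relative to the start (RefSeq, GRCh38.p14).
CCL20: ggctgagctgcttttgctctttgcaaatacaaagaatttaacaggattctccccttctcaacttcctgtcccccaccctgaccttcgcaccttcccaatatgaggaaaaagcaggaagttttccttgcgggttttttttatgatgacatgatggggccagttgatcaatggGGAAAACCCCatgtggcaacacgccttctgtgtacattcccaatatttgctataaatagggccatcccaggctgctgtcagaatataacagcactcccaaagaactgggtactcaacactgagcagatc
The motif was searched on both strands and stood in 11.3% of all windows and 12.9% of the first windows of tested genes, so 1 in 10 is close to those shares. It also stood in 1 of the 12 windows of the largest rises, that of PITPNC1. KRT15, EGR3, LIF, GEM and TGM1 had no window in the table.

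LIF, a cytokine gene of the interleukin 6 family, fell by 1.71 ± 0.16 (adjusted p = 3.13e-07) and was still 1.08 above 0 min. The orphan nuclear receptor gene NR4A3 fell by 1.68 ± 0.14, and GEM, the gene of a small GTPase that inhibits calcium channels, by 1.62 ± 0.15. FOSB, an AP-1 subunit gene, stood at 5.19, 5.29 and 5.29 at 480 min, against 6.78, 6.89 and 6.82 at 120 min, a fall of 1.57 ± 0.12 (adjusted p = 2.3e-08) on arrays that lay close together at each time. Of the 233 lost rises 153 no longer differed from 0 min at 480 min, 73 were still above it and 7 had gone below it. The genes below it included TGM1, the transglutaminase that cross-links the cornified envelope, the tight junction gene CLDN1 and the stress gene GADD45A. TGM1 stood at 7.66, 7.66 and 7.41 at 480 min, against 8.94, 8.996 and 9.26 at 120 min and a mean of 8.49 at 0 min. Its fall of 1.49 ± 0.12 (adjusted p = 2.43e-08) left it 0.91 below its 0 min level.

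Lost rises differed in when they fell. Of the 233 genes 65 passed the test between 120 and 240 min, 47 between 240 and 480 min, 7 in both and 128 in neither step alone. EGR3, NR4A3, FOSB and GEM had lost most of their rise by 240 min, when they stood 0.28, -0.08, 0.09 and 0.25 from their 0 min level. PLAT, the gene of tissue plasminogen activator, stood 1.36 above 0 min at 240 min and fell after it. Its values were 8.24, 8.37 and 8.33 at 480 min, against 9.64, 9.65 and 9.73 at 120 min, a fall of 1.36 ± 0.09 (adjusted p = 4.35e-09). Medians of the class above 0 min were 0.85 at 120 min, 0.51 at 240 min and 0.18 at 480 min.

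Lost falls were few, and FLRT2, a fibronectin leucine rich transmembrane protein gene, had the largest step. It stood at 8.70, 8.41 and 8.64 at 480 min, against 6.76, 7.08 and 7.29 at 120 min and a mean of 7.93 at 0 min. Its rise of 1.54 ± 0.15 (adjusted p = 3.96e-07) took it 0.66 above its 0 min level. LRIG3, whose product belongs to a family that restrains receptor tyrosine kinases, rose by 1.14 ± 0.13 (4.43e-06) and stood 0.12 from 0 min. The transcriptional repressor gene KLF3 rose by 0.79 ± 0.12, the pantothenate kinase gene PANK1 by 0.79 ± 0.10 and the phosphodiesterase gene PDE7A by 0.73 ± 0.12. ZBTB14 rose by 0.69 ± 0.17 (adjusted p = 0.0164), a call that was lost without the first or second 120 min array or the first or the third 480 min array (up to 0.102). ID3, an inhibitor of basic helix-loop-helix factors, regained 0.65 ± 0.12 (0.00166) of a fall of 1.42.

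Kept rises included strongly induced growth factor, cytokine and feedback genes. SPRY4, a Sprouty gene that restrains receptor tyrosine kinase signalling, stood at 8.31, 8.19 and 8.41 at 480 min, against 8.61, 8.60 and 8.90 at 120 min. The values at 480 min were slightly lower on every array, but the difference of -0.40 ± 0.16 did not pass (adjusted p = 0.151), and SPRY4 was 2.93 above 0 min. CXCL8, the gene of interleukin 8, stood at 7.55, 7.87 and 8.11 at 480 min, against 8.40, 8.46 and 8.52 at 120 min. The groups did not overlap, and -0.62 ± 0.19 did not pass (0.0625). These outcomes depended on the setting: the steps of SPRY4 and CXCL8 passed with a larger pseudocount (adjusted p = 0.0395 and 0.00928) and with the mean over probesets (0.00683 and 0.00192), and that of CXCL8 also with a stricter filter (0.00786) and with the index as a covariate (0.0397). IL1B, the interleukin 1 beta gene, differed by -0.22 ± 0.13 (0.391), the phosphate transporter gene SLC20A1 by -0.12 ± 0.18 (0.801) and SPRR2A, a cornified envelope gene, by -0.09 ± 0.22 (0.901), each with overlapping arrays and at least 2.28 above 0 min. TGFA, the gene of transforming growth factor alpha, differed by -0.40 ± 0.15 (0.12) and stood 1.88 above 0 min.

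Kept falls included BCL2L11, which encodes the pro-apoptotic protein BIM, at -1.18 at 120 min and -1.61 at 480 min relative to 0 min. The guanine nucleotide exchange factor gene VAV3 stood at -1.92 and -1.44, and the kinase gene RIPK4 at -1.62 and -1.24. SESN1, a sestrin gene, stood at -1.29 and -1.02, the semaphorin gene SEMA6D at -1.25 and -1.26, and the noncoding RNA gene DLEU2L at -1.32 and -1.35. Adjusted p for the step from 120 to 480 min lay between 0.0555 for RIPK4 and 0.981 for SEMA6D, so none of the 6 steps passed. With median centring or the index as a covariate the steps of BCL2L11, VAV3 and RIPK4 did pass (adjusted p = 0.0465, 0.028 and 0.0393 with centring).

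Late rises were led by ZBED2, a zinc finger gene of keratinocytes, at 7.71, 7.68 and 7.82 at 480 min, against 6.25, 6.39 and 6.32 at 120 min. MRGPRX3, a G protein-coupled receptor gene, stood at 7.74, 7.68 and 7.71 at 480 min, against 6.11, 6.34 and 6.49 at 120 min. The arrays of the times lay more than 1 log2 unit apart in both genes. ZBED2 rose by 1.42 ± 0.10 (adjusted p = 4.35e-09) and MRGPRX3 by 1.39 ± 0.11 (3.33e-08). PITPNC1, a phosphatidylinositol transfer protein gene, rose by 1.35 ± 0.13, BPGM, which makes bisphosphoglycerate, by 1.15 ± 0.16, and the junctional protein gene VSIG1 by 1.09 ± 0.11. ZNF367, a zinc finger gene, rose by 1.06 ± 0.14 (4.87e-05), but stood at -0.09 when only brighter probesets were kept.

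Cell cycle genes formed part of the late rises. Of 23 G1 and S phase cyclins and regulators 4 rose and 0 fell (2 at an unadjusted limma p under 0.05), and the list's median step was 0.08, against 0.02 over all genes. Over all genes 2.55% were called higher and 4.12% lower, and the list counts that follow are to be read beside these shares. CCND1, the cyclin D1 gene, stood at 8.98, 9.33 and 9.13 at 480 min, against 8.32, 8.24 and 8.45 at 120 min. E2F7, a repressor of the E2F family, stood at 7.55, 7.48 and 7.55 at 480 min, against 6.74, 6.62 and 6.72 at 120 min. The groups did not overlap in either gene, and CCND1 rose by 0.81 ± 0.11 (adjusted p = 7.95e-05) and E2F7 by 0.84 ± 0.10 (6.17e-06). The other called members were CDK6 at 0.71 ± 0.18 (0.0134) and the cyclin E2 gene CCNE2 at 0.63 ± 0.17 (0.0262), and their adjusted p reached 0.081 and 0.128 in refits without 1 array. Both calls were lost without the first array of either time or the third of 480 min, and that of CCNE2, whose groups overlapped, also without the second of 120 min.

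Of 39 DNA replication genes 5 rose, against 2.55% of all genes, and 0 fell (3 at an unadjusted limma p under 0.05), with a median step of 0.12. DTL, a substrate receptor of a ubiquitin ligase that acts in S phase, stood at 8.47, 7.89 and 8.32 at 480 min, against 6.96, 7.28 and 7.83 at 120 min. Its lowest 480 min array was only just above its highest 120 min array (0.87 ± 0.19, adjusted p = 0.00511). The replication licensing genes CDC6 and ORC1 rose by 0.77 ± 0.17 (0.00516) and 0.64 ± 0.13 (0.00346), the epigenetic regulator UHRF1 by 0.73 ± 0.11 (0.000232) and the initiation factor gene MCM10 by 0.48 ± 0.12 (0.0119). DTL had fallen between 120 and 240 min and stood at -0.77 from 0 min at 240 min, while the steps of CDC6, UHRF1 and ORC1 over that interval, -0.58, -0.15 and -0.15, did not pass (adjusted p = 0.0998, 0.831 and 0.888). ORC1 was at 0.08 (0.764) when only brighter probesets were kept, and a fit on the 6 compared arrays ended the calls of DTL and CDC6 (0.0917 and 0.0664). The call of MCM10 was lost without the first 120 min or the third 480 min array (up to 0.0766). Between 240 and 480 min 12 of the 39 genes rose and the list's median was 0.34. Over all genes 1.47% were called in that interval in either direction. Of 30 G2 and M phase genes 3 fell (CENPF, KIF20A and NUSAP1, by 0.62, 0.55 and 0.57) and 0 rose (0 at an unadjusted limma p under 0.05 also), and without the third 120 min array 0 fell (adjusted p up to 0.216, 0.149 and 0.26 in refits without 1 array).

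Some genes of sterol synthesis and of protein folding rose as well. Of 24 cholesterol synthesis and uptake genes 7 rose, against 2.55% of all genes, and 0 fell (0 at an unadjusted limma p under 0.05 also). The median step of 0.27 was the highest of the 24 lists of pathways. SCD, the stearoyl-CoA desaturase gene, which the list includes although it acts on fatty acids, is counted among the 7. It stood at 10.61, 10.36 and 10.72 at 480 min, against 9.67, 9.96 and 9.80 at 120 min, without overlap. It rose by 0.75 ± 0.14 (adjusted p = 0.00185) and the sterol dehydrogenase gene NSDHL by 0.56 ± 0.12 (0.00453). SC5D, DHCR7, SQLE, CYP51A1 and HMGCS1, enzymes of the same sterol pathway as NSDHL, rose by 0.74, 0.45, 0.59, 0.46 and 0.53, with adjusted p from 0.00893 for SC5D to 0.0474 for HMGCS1. Their calls were not stable: without the first 120 min array none of the 5 passed, at up to 0.223 for HMGCS1 in refits without 1 array, and without the third 480 min array only DHCR7 did. Of 23 unfolded protein response and chaperone genes 7 rose and 1 fell, against 2.55% and 4.12% of all genes, with a median of 0.21. The called rises were HYOU1, HSPA5, DNAJC3, PDIA4, CRELD2, HSP90B1 and CALR, which act in the endoplasmic reticulum, at 0.71 ± 0.12 for HYOU1 and 0.41 ± 0.09 for CALR. The call of CRELD2 was lost without any single one of 5 of the 6 arrays (up to 0.245), with the third 120 min array as the exception. The fall was that of DNAJB1, a partner of HSP70 in the cytosol, at -0.70 ± 0.14 (0.00193), a call lost with a stricter filter (-0.36, adjusted p = 0.173) and in a fit on the 6 arrays (0.0516).

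Late falls were led by EPGN, IGFBP3, CMKLR2, PLAC8 and MAOA. EPGN, the gene of the EGFR ligand epigen, stood at 8.49, 7.56 and 8.57 at 480 min, against 9.30, 10.28 and 10.40 at 120 min, a fall of 1.79 ± 0.28 (adjusted p = 0.000224). IGFBP3, which binds insulin-like growth factors, stood at 6.99, 6.84 and 6.998 at 480 min, against 8.54, 8.81 and 8.79 at 120 min, a fall of 1.77 ± 0.13 (1.89e-08). MAOA, the monoamine oxidase A gene, stood at 6.14, 6.29 and 6.42 at 480 min, against 7.84, 7.80 and 8.11 at 120 min, a fall of 1.63 ± 0.11 (5.15e-09). No array of 480 min reached an array of 120 min in these genes, and EPGN was the most variable of the 3. PLAC8 fell by 1.67 ± 0.19 (6.15e-06) and the DNA-binding protein gene SSBP2 by 1.40 ± 0.10 (1.31e-08). CMKLR2, a chemerin receptor gene measured by 4 probesets, fell by 1.69 ± 0.15 (1.89e-07), a call that was lost when dim probesets were kept (adjusted p = 0.686).

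Of 20 targets of NRF2, the transcription factor of oxidative defence, 5 fell, against 4.12% of all genes. In this list 0 rose (0 at an unadjusted limma p under 0.05 also), and the median was -0.19. GCLC, the catalytic subunit gene of glutathione synthesis, stood at 7.85, 7.67 and 8.04 at 480 min, against 8.74, 9.26 and 9.37 at 120 min. It fell by 1.27 ± 0.18 (adjusted p = 8.01e-05), the export pump gene ABCC2 by 1.28 ± 0.13 (1.34e-06) and the thioredoxin reductase gene TXNRD1 by 1.05 ± 0.16 (0.00017). The autophagy receptor gene SQSTM1 fell by 0.58 ± 0.13 and the transketolase gene TKT by 0.52 ± 0.12. Without the third 120 min array the count was again 5.

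Counted by list, immediate early transcription factors had the largest share of falls. Of 29 measured genes 13 fell from 120 to 480 min, against 4.12% of all genes, and 0 rose (1 at an unadjusted limma p under 0.05), with a median of -0.43. The list had 20 called rises at 120 min, against 11.2% of all genes, and of these rises 11 were lost and 7 kept. Besides EGR3, NR4A3 and FOSB the falls included NR4A1 at -1.09 ± 0.12 (adjusted p = 2.65e-06), FOSL1, another AP-1 subunit gene, at -1.26 ± 0.14 (2.71e-06), the Krüppel-like factor KLF10 at -1.12 ± 0.14 (1.23e-05) and SRF, the serum response factor gene, at -0.87 ± 0.13 (0.000129). Without the third 120 min array 9 fell, and the calls of EGR1, ETS2, FOS and NR4A2 were lost, at adjusted p up to 0.18 for EGR1 in refits without 1 array.

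Of 25 feedback regulators of ERK and EGFR 5 fell and 1 rose, against 4.12% and 2.55% of all genes, with a median of -0.18. DUSP6, the cytosolic ERK phosphatase gene, stood at 9.96, 9.99 and 9.94 at 480 min, against 10.52, 10.61 and 10.92 at 120 min. All 480 min arrays were lower, by 0.72 ± 0.11 (adjusted p = 0.000142), but DUSP6 was still 2.92 above 0 min. ERRFI1, a direct inhibitor of EGFR, fell by 1.02 ± 0.13 (1.36e-05), the nuclear ERK phosphatase gene DUSP5 by 0.79 ± 0.13 (0.000405), DUSP14 by 0.56 ± 0.14 and the ubiquitin ligase gene CBLB by 0.51 ± 0.15. SPRY2 rose by 0.57 ± 0.11 (0.00125). Without the third 120 min array 3 fell and 2 rose, and the calls of DUSP14 and CBLB were among those lost (up to 0.0715 and 0.177 in refits without 1 array).

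Of 12 EGF family ligands, receptors and sheddases 4 fell, against 4.12% of all genes, and 0 rose (1 at an unadjusted limma p under 0.05). The median was -0.18. HBEGF, the heparin-binding EGFR ligand gene, stood at 9.45, 9.28 and 9.47 at 480 min, against 10.22, 10.29 and 10.38 at 120 min, a fall of 0.89 ± 0.16 (adjusted p = 0.000743). EREG, the epiregulin gene, stood at 8.52, 8.30 and 8.56 at 480 min, against 9.42, 9.23 and 9.45 at 120 min, a fall of 0.90 ± 0.14 (0.000172). Both fell without overlap between the times and remained 2.48 and 1.60 above 0 min. The other falls were EPGN and the sheddase gene ADAM17, which fell by 0.52 ± 0.14 (0.03), a call lost without any single one of 4 of the 6 arrays, the second or the third of 120 min or the first or second of 480 min (up to 0.132).

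Of 24 chemokine, cytokine and NF-kB target genes 6 fell and 2 rose, against 4.12% and 2.55% of all genes, with a median of -0.39. Without the third 120 min array 4 fell and 1 rose. The falls were IL36G, CCL20, LIF, the ubiquitin-editing gene TNFAIP3 at -1.16 ± 0.11 (adjusted p = 3.76e-07), the prostaglandin synthase gene PTGS2 at -0.54 ± 0.16 and the adhesion receptor gene ICAM1 at -0.52 ± 0.13. The rises were the alarmin gene IL33 at 1.21 ± 0.17 (7.95e-05), which was 3.76 above 0 min at 480 min, and the growth factor gene CSF3 at 0.54 ± 0.14 (0.0239). Without the third 120 min array the calls of PTGS2, ICAM1 and CSF3 were lost (up to 0.145, 0.103 and 0.113 in refits without 1 array).

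The list of extracellular proteolysis and migration moved both ways, with 8 of 26 genes higher, against 2.55% of all genes, and 8 lower, and a median of -0.07. Besides MMP1, MMP10 and SERPINE2 the matrix protease genes MMP3, MMP9, MMP14 and ADAMTS1 rose by 0.88, 0.78, 0.41 and 0.61, and the actin bundling gene FSCN1 by 0.46. The falls included PLAT and the urokinase receptor gene PLAUR, which stood at 8.57, 8.54 and 8.41 at 480 min, against 9.85, 9.71 and 9.75 at 120 min (-1.26 ± 0.10, adjusted p = 2.31e-08). SERPINB2, a urokinase inhibitor gene, fell by 0.64 ± 0.11, the hyaluronan synthase gene HAS3 by 1.38 ± 0.11 (6.11e-08) and the focal adhesion gene TNS3 by 1.02 ± 0.14. The protease genes MMP2 and MMP13 fell by 0.38 and 0.55 and the inhibitor gene TIMP3 by 0.40. The call of TIMP3 was lost without any single array of the 6 (adjusted p up to 0.15). Those of MMP14, MMP13 and MMP2 were lost without any single one of 5, 4 and 3 arrays, the third of 120 min among them. That of FSCN1 was lost without the second 480 min array (0.0561). Without the third 120 min array 8 were higher and 5 lower.

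**Figure D5:**
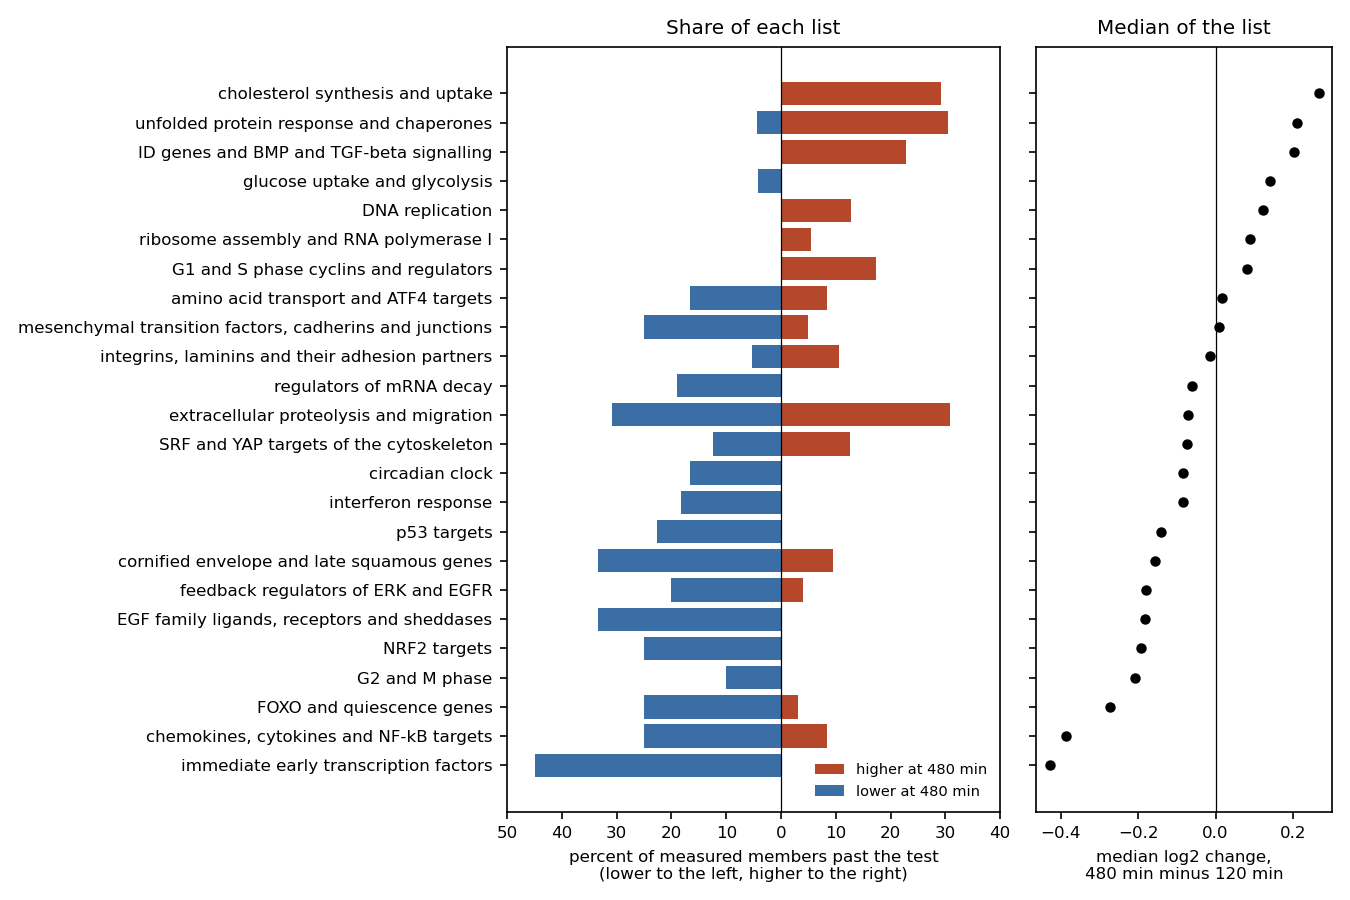
Percent of each list's measured members that passed the test as lower (blue, left of 0) or higher (red, right of 0) at 480 min than at 120 min, and, in the right panel, the median log2 change of the list, sorted by that median. Cholesterol synthesis had the highest median at 0.27, immediate early transcription factors the lowest at -0.43, and extracellular proteolysis had 8 members on each side.

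Of 19 integrin, laminin and adhesion partner genes FERMT1 and the integrin gene ITGA3 rose and VCL, the vinculin gene, fell by 0.60 ± 0.11. The shares over all genes were 2.55% higher and 4.12% lower. ITGA3 rose by 0.33 ± 0.09 (adjusted p = 0.0412), a call that was lost without any single one of 5 of the 6 arrays (up to 0.185), with the third of 480 min as the exception. Of 24 SRF and YAP targets of the cytoskeleton 3 rose (AJUBA, ACTN1 and TAGLN2) and 3 fell (VCL, CALD1 and the LIM domain gene FHL2 at -0.75 ± 0.10, 4.49e-05), and without the third 120 min array 1 rose and 3 fell, with ACTN1 and TAGLN2 at up to 0.128 and 0.13 in refits without 1 array. With a stricter filter AJUBA stood at 0.22 (0.381) and CALD1 at -0.32 (0.273), and neither passed. Of 22 ID, BMP and TGF-beta genes 5 rose and 0 fell (0 at an unadjusted limma p under 0.05 also), with a median of 0.20. They were LTBP1, ID3, the follistatin gene FST, BMP4 and BMP2, which stood at 8.89, 8.86 and 9.13 at 480 min, against 8.04, 8.13 and 8.10 at 120 min (0.87 ± 0.12, 5.41e-05). FST rose by 0.48 ± 0.14 (0.0396), a call lost without the first or second 120 min array or the first or the third 480 min array (up to 0.208). The call of BMP4 was lost without any single array of the 6 (up to 0.168).

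Of 32 FOXO and quiescence genes 8 fell and 1 rose, against 4.12% and 2.55% of all genes, with a median step of -0.27. In this list 21 were lower at 480 min than at 0 min, against 12 lower at 120 min than at 0 min. Over all genes 3.21% were called lower at 120 min than at 0 min. Between 480 and 0 min 22.6% of all genes were called in either direction. Besides FBXO32, ARRDC4, an arrestin domain gene, fell by 0.67 ± 0.11 (adjusted p = 0.000392), the coregulator gene CITED2 by 0.53 ± 0.10 (0.000953), SESN3 by 0.85 ± 0.16, ARRDC3 by 0.77 ± 0.14 and the cyclin-dependent kinase inhibitor gene CDKN1C by 0.66 ± 0.13. KLHL24 fell by 0.60 and the autophagy kinase gene ULK1 by 0.40. BNIP3, a mitophagy receptor gene, rose by 0.95 ± 0.16 (0.000597). Without the third 120 min array 7 fell and 1 rose, and the calls of KLHL24 and ULK1 were lost (up to 0.0973 and 0.0709 in refits without 1 array).

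Among the called epithelial junction and cornification genes more fell than rose. The shares over all genes were 4.12% lower and 2.55% higher. Of 20 mesenchymal transition, cadherin and junction genes the junction genes CLDN1, CLDN4, CLDN7 and OCLN and the epithelial factor gene OVOL1 fell, and VIM, the vimentin gene, rose. The median of that list was 0.009, and without the third 120 min array 4 fell and 1 rose. VIM stood at 8.90, 8.99 and 8.84 at 480 min, against 8.27, 8.37 and 8.37 at 120 min (0.57 ± 0.11, adjusted p = 0.00241). CLDN1 stood at 9.59, 9.30 and 9.46 at 480 min, against 10.57, 10.42 and 10.56 at 120 min (-1.06 ± 0.14, 3.55e-05). Neither gene's groups overlapped. Of 21 cornified envelope and late squamous genes 7 fell and 2 rose, with a median of -0.16. Without the third 120 min array 5 fell and 2 rose. TGM1, KRT1, KRT10, the desmosomal genes DSG1 and DSC2 and the kallikrein genes KLK5 and KLK7 fell, DSG1 by 0.87 ± 0.13 (0.000184), while SPRR1A rose by 0.82 ± 0.15 (0.000829) and PI3 by 0.48 ± 0.12. In refits without 1 array adjusted p reached 0.143 for OCLN, 0.19 for DSC2, 0.131 for KLK5, 0.0796 for KLK7 and 0.102 for PI3, and OCLN, DSC2 and KLK5 lost their calls without the third 120 min array. Of 14 basal markers KRT15 fell and 0 rose (0 at an unadjusted limma p under 0.05 also). The mean level of that list lay at 10.2 to 10.3 at 480 min and 10.4 to 10.6 at 120 min. Of 12 luminal markers FOXA1, a forkhead factor gene, fell by 0.84 ± 0.11 and MUC1, a mucin gene, by 0.67 ± 0.17, a call lost without the second 120 min or the third 480 min array (up to 0.0614). The mean level of that list lay at 6.64 to 6.70 at 480 min and 6.84 to 6.85 at 120 min. Fibroblast, leukocyte and endothelial lists had 0 called genes (1, 0 and 0 at an unadjusted limma p under 0.05). Their mean levels spanned 5.60 to 5.65, 5.06 to 5.13 and 5.20 to 5.32 at 480 min and 5.60 to 5.66, 5.06 to 5.14 and 5.12 to 5.29 at 120 min. The part of cell type makeup in the results was not tested.

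Stress and defence lists fell in part, beside 4.12% of all genes called lower and 2.55% called higher. Of 22 p53 targets 5 fell and 0 rose (0 at an unadjusted limma p under 0.05 also), with GADD45A at -0.95 ± 0.11 (adjusted p = 5.27e-06) and the pleckstrin homology gene PHLDA3 at -0.72 ± 0.14 (0.00193). The other falls were ZMAT3, the death receptor gene TNFRSF10B and the kinase gene PLK3, and the calls of TNFRSF10B and PLK3 were lost without the third 120 min array or the third 480 min array (up to 0.0723 and 0.0627). Of 22 interferon response genes 4 fell and 0 rose (0 at an unadjusted limma p under 0.05 also): IFIT1, an interferon-induced antiviral gene, by 1.13 ± 0.18 (0.000342), IFI44L by 0.77 ± 0.14, the signal transducer gene STAT2 by 0.65 ± 0.13 and OASL by 0.52 ± 0.13, a call lost without the first array of either time or the third of 480 min (up to 0.104). IFIT1 and IFI44L were dim at 480 min, at 4.60, 4.83 and 4.51 and at 5.17, 5.25 and 5.53, against 5.55, 5.53 and 6.25 and 5.93, 5.92 and 6.42 at 120 min. The call of IFI44L was lost when dim probesets were kept (-0.43, adjusted p = 0.0954) and that of OASL with a stricter filter (-0.30, 0.117). Of 18 circadian clock genes PER1, PER3 and CIART fell and 0 rose (1 at an unadjusted limma p under 0.05). PER1 fell by 0.54 ± 0.09 (0.000479), and the calls of PER3 and CIART were lost when dim probesets were kept, that of PER3 also without any single one of 5 of the 6 arrays (up to 0.162).

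Few genes of the ribosome assembly and glycolysis lists were called in this interval. The shares over all genes were 2.55% higher and 4.12% lower. Of 36 ribosome assembly and RNA polymerase I genes FBL, the fibrillarin gene, and DKC1, the dyskerin gene, rose, by 0.76 ± 0.17 and 0.46 ± 0.11, and 0 fell (4 at an unadjusted limma p under 0.05). By that unadjusted measure 9 rose. The call of DKC1 was lost without the second 120 min or the first 480 min array (up to 0.0687) and when dim probesets were kept (0.24), and that of FBL with a stricter filter (0.37, adjusted p = 0.0595) and in a fit on the 6 arrays (0.0739). The list had 23 called rises at 120 min and 28 at 480 min against 0 min. Over all genes 11.2% were called higher at 120 min than at 0 min. Between 480 and 0 min 22.6% of all genes were called in either direction. Of 24 glucose uptake and glycolysis genes the glucose transporter gene SLC2A1 fell by 0.55 ± 0.09 (adjusted p = 0.000336) and 0 rose (7 at an unadjusted limma p under 0.05), with a median of 0.14. With the index as a covariate 3 rose and 2 fell. Of 24 amino acid transport and ATF4 target genes 4 fell (PHGDH, SLC6A9, CEBPB and SLC7A5) and 2 rose (SESN2 and VLDLR), and the call of PHGDH, the first enzyme of serine synthesis, was lost when dim probesets were kept. The call of SESN2 was lost without any single array (up to 0.101), and those of CEBPB and SLC7A5 without the third 120 min array (up to 0.0943 and 0.106). Of 21 regulators of mRNA decay ZFP36, ZFP36L1, BTG1 and the deadenylase gene PAN2 fell, PAN2 by 0.76 ± 0.11 (6.16e-05), and 0 rose (1 at an unadjusted limma p under 0.05). In refits without 1 array adjusted p reached 0.0873 for ZFP36 and 0.0651 for BTG1, and ZFP36 kept its call only without the second 120 min array. ZFP36L1 lost its call with a stricter filter (0.333), with the mean over probesets (0.0541) and in the fit on 6 arrays (0.0533). Of 12 reference genes 0 were called (1 at an unadjusted limma p under 0.05), with a median of 0.01.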

How the data were processed

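The authors deposited a linear intensity for each of 1384231 probesets on each array. PLIER and Affymetrix Expression Console 1.1 are named in the submitters' processing notes, without role or settings. Array medians of the deposited intensity values were nearly equal, and how they were equalised is not given in the sources used here. Detection calls were not part of the table. Per the labels' protocols RNA was treated with DNase, depleted of ribosomal RNA and labelled with biotin.

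In the platform annotation 354600 probesets carried a single gene symbol, 14898 carried several, and the other 1014733 stayed unnamed. Symbols were brought up to date with a GRCh38.p14 gene table (2950 of 19497 changed, 121 found no match). Array features have no coordinates here. Values were transformed to log2(intensity + 16). Probesets were kept from a mean over all arrays of 5.18 on this scale, the median probeset's, and a gene's value was the median of at least 3 such probesets. A log2 change therefore understates the change of dim genes.

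All 21 arrays entered 1 model with a mean per time in limma 3.58.1 (lmFit, eBayes) under R 4.3.3, with 14 residual and 7.08 prior degrees of freedom. Tests were two-sided, with Benjamini-Hochberg adjustment over all 16614 genes. Values after ± are standard errors of a log2 change unless marked SD. The median standard error of the step was 0.14, and 3 arrays a time set the precision. The fit was tested on simulated data. The 0, 120 and 480 min classes rest on contrasts that share arrays.

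The classes, gene lists and named genes were chosen with earlier results of these data known. Named were the 15 genes with the largest step in each direction, the 6 largest of each class and, by smallest adjusted p, at most 4 members per list. The 15, and the 6 outside the kept class, were called genes with all 480 min arrays on 1 side of those of 120 min. Separate arrays in those genes therefore follow from the choice. Other called list members, and the genes of the closing section, were named after their values had been seen. Replicate numbers did not pair the arrays: deviations of same-numbered 480 and 120 min arrays correlated at -0.31, -0.26 and 0.56. Alternatives were other normalizations, pseudocounts, filters, gene summaries, thresholds, arrays left out, a replicate block and an index covariate, the last chosen after seeing the data. Promoter windows of 300 bases came from RefSeq (GRCh38.p14), and the first window of a symbol was used.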

Additional observations from a re-analysis of the deposited data

How the results depend on the processing

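Of the 120 named genes that passed the test, 100 passed in every refit without 1 array of 480 or 120 min, 86 under every other alternative checked and 84 under all of these, and 1 change turned round: ZNF367 stood at -0.091 with a stricter filter. These single-gene counts left out the threshold of 0.01 and the fit on 9 arrays. The stricter filter gave a value for 149 of the 161 named genes, and a gene without one was not counted as lost. Counts moved more. The mean over probesets gave 1675 called genes with 680 higher, and 205 extended rises, 112 extended falls, 475 kept falls, 371 lost rises and 73 lost falls. A fit on the 6 compared arrays gave 455 called genes, 155 higher and 300 lower, and beside those named above ended the calls of CDK6, CCNE2, CENPF, KIF20A, NUSAP1, SC5D, DHCR7, VLDLR, SLC6A9, CEBPB, ZMAT3, PLK3, BTG1, PER3, OASL, ADAM17, AJUBA, ITGA3, FST, ID3, ZBTB14 and DKC1. A fit on the 9 arrays of 0, 120 and 480 min gave 59 extended rises, 17 extended falls, 180 kept falls, 143 late rises, 236 late falls, 146 lost rises, 11 lost falls and 105 undecided falls. At an adjusted p under 0.01, 609 genes were called, 228 higher and 381 lower, with 59 extended rises, 16 extended falls, 654 kept rises, 128 kept falls, 158 late rises, 238 late falls, 127 lost rises, 11 lost falls and 84 undecided falls. Changes chosen at 60 min gave 34 extended rises, 11 extended falls, 434 kept rises, 79 kept falls, 7 lost falls, 169 undecided rises and 65 undecided falls. The index covariate gave 1849 called genes with 907 higher, 105 extended falls, 576 kept falls, 671 late rises, 104 lost falls and 205 undecided rises. Median centring gave 88 extended falls, 543 kept falls, 58 lost falls and 310 undecided falls, and a stricter filter 52 lost falls. Fewer arrays, a stricter threshold and the choice of time act through their own construction, and for the others the cause was not tested.

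In refits without 1 array the called genes numbered 733 to 1017, with 255 to 508 higher and 401 to 744 lower. Rises and falls then ranged from 67 to 109 and 24 to 38 (extended), 755 to 1550 and 185 to 296 (kept), 131 to 287 and 16 to 45 (lost), 163 to 383 and 237 to 458 (late), and 142 to 656 and 105 to 208 (undecided). Class membership was less stable than the named genes: the share that stayed in its class without any 1 array was 48.5% of lost, 44.2% of kept, 44.1% of extended, 35.8% of late and 9.24% of undecided rises, and 40.4% of late, 36.7% of lost, 35.4% of kept, 26.4% of extended and 7.55% of undecided falls. Replicate numbers did not pair the arrays. With the replicate block 1020 genes were called, 396 higher and 624 lower, no named call changed, and 2 of the 6 arrays correlated best with their own number. Dim genes such as FBXO32 and IFIT1 at 480 min are limited by signal over background, and no detection calls were used.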

Other observations

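Guanylate-binding proteins are large GTPases of the interferon response. Of the 7 GBP genes measured 3 fell between 120 and 480 min in limma's test, against 4.12% of all genes. GBP1 averaged 7.05 at 480 min and 8.29 at 120 min (-1.24 ± 0.21, adjusted p = 0.000405), GBP2 6.54 and 7.84 (-1.30 ± 0.25, 0.00203) and GBP6 6.17 and 7.38 (-1.22 ± 0.16, 2.4e-05). At 480 min these 3 genes stood at -0.57, -0.75 and -0.84 on the log2 scale relative to 0 min (adjusted p = 0.0495, 0.0365 and 0.000391). GBP3, GBP4, GBP5 and GBP7 did not pass, at -0.62, -0.38, -0.30 and 0.06 (adjusted p = 0.0892, 0.0699, 0.114 and 0.888). GBP genes resemble each other in sequence, so probesets may read more than 1 member, and the genes were picked after their values had been seen.

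The step can be divided at 240 min. Between 240 and 120 min 256 genes (1.54%) passed and between 480 and 240 min 245 (1.47%), against 1108 over the whole step. PTGS2 fell in the first interval and rose in the second, as did ZEB1, a mesenchymal repressor gene. The DNA replication list had 2 called falls in the first interval, DTL and PRIM1, and 12 called rises in the second.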
